A study of Homo sapiens with 7 samples.

Results

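The tumour suppressor genes RB1, APC, NF1, BRCA1, BRCA2, ATM, VHL and SMAD4 were taken by gene name from the array annotation, with every 250-kb window of the genome that holds a probe carrying one of the names. They came to 8 of 24656 named genes, and to 11 of the 8913 windows that had at least 3 probes on every array. On the larger array design 92 of up to 169519 usable probes belonged to the 8 genes, and on the array labelled 44k 38 of 54801 did. NF1 had 24 probes, RB1 20, APC 13, ATM 11, BRCA2 10, BRCA1 8, SMAD4 5 and VHL a single probe.

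Replication timing was measured in K562, a human chronic myeloid leukaemia line, and U2OS, a human osteosarcoma line, on 7 arrays that compare DNA copied early in S phase with DNA copied late. Cells took up the thymidine analog BrdU at 50 µM for 2 h and 80000 were sorted by DNA content into an early and a late fraction, and the BrdU-labelled DNA was pulled down, amplified and labelled with Cy3 (early) or Cy5 (late). K562 had 3 arrays, 1 each for a new sorting method, an old sorting method and the array labelled 44k. U2OS had 4 arrays, 2 called manual and 2 automated in their titles, which do not say which step was automated. No drug other than BrdU and no genetic change within a line was part of any group. Nothing in the labels says that arrays of a line came from separate cultures, so p-values measure only the spread between these arrays, which may be technical. Timing is given as log2(early/late) with the median probe of each array at 0, so a positive value is earlier than that probe. Summed signal is log2 of the early plus the late signal, also centred on the array's median.

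Tumour suppressor genes are genes whose loss helps cells escape limits on growth or keep damaged DNA. RB1 encodes a pocket protein that holds E2F factors inactive before S phase. NF1, APC, SMAD4 and VHL act as brakes or mediators in signalling: neurofibromin switches RAS off, APC scaffolds the complex that marks beta-catenin for destruction, SMAD4 carries TGF-beta and BMP signals, and VHL is the receptor of the ubiquitin ligase that degrades HIF-alpha. BRCA1, BRCA2 and ATM act on double-strand breaks. Cells copy their genome in large domains that fire at set times in S phase. Gene-rich, active domains are usually copied early and gene-poor, silent ones late, and part of this programme differs between cell types.

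Among the 11 windows, APC alone passed the test between the lines, and 6 of the 13 APC oligonucleotides of the larger design are shown here. These are the APC probes on both array designs, so each was read on all 7 arrays; positions are on hg19.
APC probe at chr5:112065631-112065690: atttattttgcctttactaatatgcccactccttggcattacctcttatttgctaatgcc
APC probe at chr5:112090598-112090657: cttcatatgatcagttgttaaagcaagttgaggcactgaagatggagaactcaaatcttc
APC probe at chr5:112111326-112111384: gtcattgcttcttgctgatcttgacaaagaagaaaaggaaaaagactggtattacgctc
APC probe at chr5:112116492-112116550: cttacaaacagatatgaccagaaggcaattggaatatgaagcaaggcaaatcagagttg
APC probe at chr5:112136951-112137003: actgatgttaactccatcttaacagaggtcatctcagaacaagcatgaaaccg
APC probe at chr5:112159202-112159256: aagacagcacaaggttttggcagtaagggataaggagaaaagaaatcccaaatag
In the order printed, their log2(early/late), as the mean of the K562 arrays of the larger design against the mean of the U2OS arrays, was 2.05 against 0.16, 1.43 against 0.86, 1.65 against 0.66, 0.07 against 0.21, 1.36 against 1.30 and 1.39 against 0.71. The first probe carried the widest gap, and the probe that starts at 112116492 read near 0 in both lines. In the same order, the K562 array labelled 44k read 1.88, 0.25, 0.46, 0.23, 1.23 and 2.10. These values lay below the U2OS mean at the probes that start at 112090598, 112111326 and 112136951, and above it at the others. VHL rests on this single probe, and its difference between the lines had the largest SE of the 8 genes (0.47).
VHL probe at chr3:10185707-10185766: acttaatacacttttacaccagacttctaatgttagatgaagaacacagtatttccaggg
It read 0.21 (new sorting), 0.79 (old sorting) and -0.52 (44k) in K562, and 1.54 and -0.22 (manual) and 0.22 and 0.60 (automated) in U2OS. The spread of this probe inside each line was wider than the gap between the lines. Member probes had a mean GC content of 35.7%, against 36.5% for all probes of the larger design.

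The 7 arrays differed in brightness. The early channel was well above background at 86.7%, 44.7% and 88.3% of probes in K562 (new sorting, old sorting, 44k) and at 73% to 93.5% in U2OS. The late channel was well above background at 60.1%, 76.2% and 8.82% of probes in K562, at 60.2% and 40.2% in manual U2OS and at 95.8% and 96.4% in automated U2OS. Of the member probes, 38, 55 and 1 were above background in the late channel in K562, 40 and 32 in manual U2OS and 89 and 89 in automated U2OS; in the early channel 51 of 92 were on the old-sorting array and at least 90 of 92 on the others of the larger design. Arrays of the same line correlated at r = 0.87 to 0.93 (K562) and 0.93 to 0.99 (U2OS) over 8913 windows, and arrays of different lines at 0.64 to 0.75, as a description across windows. As checks of the labels, CDKN2A, which is known to be lost in K562, had summed signal of -2.82, -1.97 and -1.23 in K562 and -0.65 to -1.03 in U2OS, and DPPA2, the late control, lay between -2.50 and -0.87 in timing on all 7 arrays. Both manual U2OS arrays shared a slide, and no slide held both lines.

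Most of the tumour suppressor windows were early in both lines. Of the 11, 9 were above 0 on all 7 arrays, against 36.9% of all windows, a background that includes gene-poor regions. The median window lay at 1.09 in K562 and at 1.21 in U2OS, and the median percentile among all windows was 77.6 in K562 and 78.6 in U2OS. The windows not above 0 on every array were those of RB1: the first was at -0.03 on 1 automated U2OS array, and the second was below 0 on 2 of 3 K562 arrays. Near the middle of all windows lay BRCA2, at percentiles 52.7 in K562 and 58.5 in U2OS, and RB1, at 59 and 55 (first window) and 47.4 and 53.3 (second). Differences between the lines were mostly inside the spread of the arrays. With limma over all 8913 windows, 1 of 11 member windows passed an adjusted p of 0.05, against 31.0% of all windows (14.7% earlier and 16.2% later in K562), and 2 of 11 had an unadjusted p under 0.05, against 40.4% of all windows. The lines did not overlap in 3 of 11 windows, against 38.5% of all. The median difference of the member windows was -0.23, against -0.10 over all windows.

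**Figure D1:**
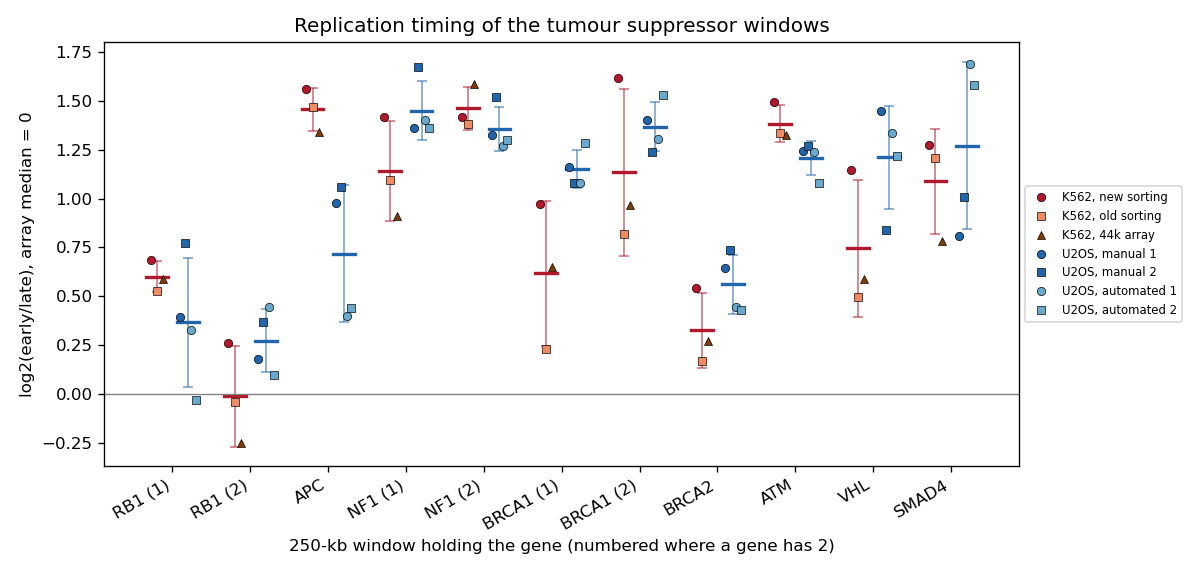
Timing, as log2(early/late) with the array median at 0, of the 11 windows that hold a tumour suppressor gene; points are single arrays, bars the mean of K562 (3 arrays, red) and U2OS (4 arrays, blue), and error bars 1 SD. The K562 points of APC lie between 1.34 and 1.56 and all U2OS points between 0.40 and 1.06, while most other windows overlap.

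RB1 had the latest window of the 11 in each line, its second; its first was later than that of BRCA2 in U2OS and earlier in K562. Its 20 probes fall in chr13:48750001-49000000 (16 probes) and chr13:49000001-49250000 (4 probes). The first window read 0.68, 0.53 and 0.59 in K562 (new sorting, old sorting, 44k), 0.40 and 0.77 in manual U2OS and 0.33 and -0.03 in automated U2OS. The groups overlapped, and the lowest array was an automated one. The mean of K562 was 0.60 ± 0.08 (SD, n = 3), against a U2OS mean of 0.37 ± 0.33 (SD, n = 4), a difference of 0.23 (SE 0.23, limma adjusted p = 0.485). The second window, which also holds RCBTB2, read 0.26, -0.04 and -0.25 in K562 and 0.18, 0.37, 0.44 and 0.10 in U2OS, with a difference of -0.28 (limma adjusted p = 0.357). Its 44k value rests on 5 probes, of which 1, an RB1 probe absent from the larger design, read -2.51. The weight of this probe in the K562 mean was not tested. Around RB1 timing climbed from the proximal to the distal side in both lines. It went from -1.64 in K562 and -1.53 in U2OS 1000 kb before the gene's window to 1.23 and 1.18 at 1000 kb after it. None of the 8 windows tested there passed, against 31.0% of all windows.

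NF1 lay among the earliest, and in a stretch that was early throughout. Its window chr17:29500001-29750000, with 18 of its 24 probes, read 1.42, 1.38 and 1.59 in K562, 1.33 and 1.52 in manual U2OS and 1.27 and 1.30 in automated U2OS. The lines overlapped, at 1.46 ± 0.11 (SD, n = 3) against 1.36 ± 0.11 (SD, n = 4), with a difference of 0.11 (SE 0.20, 95% interval -0.33 to 0.54, limma adjusted p = 0.718). The neighbouring window chr17:29250001-29500000, with 6 NF1 probes beside ADAP2 and RNF135, read 0.91 to 1.42 in K562 and 1.36 to 1.67 in U2OS, and did not pass either (difference -0.31, limma adjusted p = 0.315). Over 11 windows within 1250 kb of NF1 the line means stayed between 1.01 and 1.46 in K562 and between 1.24 and 1.82 in U2OS. Of these windows 0 passed, against 31.0% of all windows. Probe means within NF1, over the 6 arrays of the larger design, ran from -0.15 to 2.22, so single probes varied far more than the window did between lines.

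APC was earlier in K562. The window chr5:112000001-112250000, with all 13 probes and also SRP19 and REEP5, read 1.56, 1.47 and 1.34 in K562 (new sorting, old sorting, 44k), 0.98 and 1.06 in manual U2OS and 0.40 and 0.44 in automated U2OS. Every K562 array was above every U2OS array, and in U2OS both manual arrays were above both automated ones. The means were 1.46 ± 0.11 (SD, n = 3) and 0.72 ± 0.35 (SD, n = 4), and their difference was 0.74 (SE 0.24, limma adjusted p = 0.0422). The mean of K562 exceeded that of manual U2OS by 0.44 and that of automated U2OS by 1.04. The call was narrow: it was lost in 15 of 27 alternatives, among them leaving out any array but the second manual one (differences 0.63 to 0.85, limma adjusted p = 0.0353 to 0.129) and using only the probes of both designs (0.66, limma adjusted p = 0.108). Of the 13 probes, 11 had a higher mean in K562 than in U2OS on the larger design. The mean over all APC probes was 1.25 ± 0.20 (SD, n = 3) on the K562 arrays, against 0.63 ± 0.28 (SD, n = 4) for U2OS, which did not pass in the fit over genes (limma adjusted p = 0.217).

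The difference at APC belonged to a wider stretch. In the window 250 kb before the gene's window, K562 read 1.40, 0.86 and 0.39 and U2OS -0.46, -0.47, -0.22 and -0.39, with no overlap (difference 1.27, SE 0.26, limma adjusted p = 0.00471). At 500 kb before, K562 averaged -0.10 and U2OS -1.08 (difference 0.98, limma adjusted p = 0.0156). Farther out the order turned: K562 was later than U2OS at 1000 kb before (-2.30 against -0.91) and at 750 kb after (-1.06 against -0.04), and both passed (limma adjusted p = 0.00883 and 0.0159). At 250 kb after, K562 averaged 1.40 and U2OS 0.87, which did not pass (limma adjusted p = 0.101). In all, 5 of 9 windows tested at and around APC passed, against 31.0% of all windows, and 3 of the 5 were earlier in K562. With 1 array left out in turn, the windows at 1000 and 250 kb before passed each time, while that at 500 kb before was lost without the 44k array (limma adjusted p = 0.0622) and that at 750 kb after without the old-sorting array (difference -0.83, limma adjusted p = 0.0542).

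SMAD4 was early in both lines, and its window had the largest difference between U2OS handlings of the 11, which its own probes did not share. The window chr18:48500001-48750000, with all 5 SMAD4 probes among 20 and also ELAC1 and MEX3C, read 1.28, 1.21 and 0.78 in K562, 0.81 and 1.01 in manual U2OS and 1.69 and 1.58 in automated U2OS. The automated arrays were the highest of the 7 and the manual ones lay inside the K562 range. The line means were 1.09 ± 0.27 (SD, n = 3) and 1.27 ± 0.43 (SD, n = 4), a difference of -0.18 (SE 0.28, limma adjusted p = 0.653). For the window, K562 minus manual was 0.18 and K562 minus automated -0.55. The mean of the SMAD4 probes, 5 on the larger design and 3 on the array labelled 44k, was 1.40, 1.30 and 1.02 in K562. Its average over the K562 arrays, 1.24, lay below both manual (1.60) and automated U2OS (1.67). SMAD4 stands at an edge in both lines, with the next window at -1.06 in K562 and -0.41 in U2OS. Of 8 windows tested around it, only the one 1250 kb before passed (difference -0.57), against 31.0% of all windows. That call was lost with any array left out (differences -0.61 to -0.54, largest limma adjusted p = 0.123).

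The window that holds VHL was early in both lines, while the VHL probe itself, shown above, was below 0 on 2 of the 7 arrays. The window chr3:10000001-10250000 holds 23 probes on the larger design, 1 of them named VHL and the others partly in FANCD2 and IRAK2. It read 1.15, 0.50 and 0.59 in K562, 1.45 and 0.84 in manual U2OS and 1.34 and 1.22 in automated U2OS. The lines overlapped through the new-sorting array. Their means were 0.75 ± 0.35 (SD, n = 3) and 1.21 ± 0.26 (SD, n = 4), with a difference of -0.47 (SE 0.25, 95% interval -1.02 to 0.09, limma adjusted p = 0.194). It passed without the new-sorting array (difference -0.67, limma adjusted p = 0.0455) and with array weights. With 1 mean per condition it passed as well, in a fit that takes no spread from K562, where each condition had 1 array. Of the 11 windows around VHL, 2 passed, against 31.0% of all windows. Both were later in K562, at 750 kb (difference -0.85) and 1000 kb (difference -0.77) after the gene's window. These calls were lost without 5 and 4 of the 7 arrays, left out in turn, among them both automated ones (differences -1.01 to -0.59 and -0.86 to -0.61, largest limma adjusted p = 0.109 and 0.10).

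BRCA1 had lower values in K562 that did not pass with all 7 arrays and passed without the new-sorting one. The window chr17:41000001-41250000, with 5 of its 8 probes among 24 and with RND2, VAT1, IFI35 and RPL27, read 0.97, 0.23 and 0.65 in K562, 1.16 and 1.08 in manual U2OS and 1.08 and 1.28 in automated U2OS. Every K562 array was below every U2OS array, yet the K562 arrays were far apart. The means were 0.62 ± 0.37 (SD, n = 3) and 1.15 ± 0.10 (SD, n = 4), with a difference of -0.54 (SE 0.23, limma unadjusted p = 0.0431, adjusted p = 0.11). The other window, chr17:41250001-41500000, which holds 3 BRCA1 probes, NBR1 and NBR2, read 1.62, 0.82 and 0.97 in K562 and 1.24 to 1.53 in U2OS (difference -0.23, limma adjusted p = 0.50). The mean over the BRCA1 probes, 8 on the larger design and 4 on the array labelled 44k, was 1.50, 0.27 and 0.45 in K562. In U2OS it was 1.41 to 1.71, with a difference of -0.85 (SE 0.35, limma adjusted p = 0.154). Without the new-sorting array the first window (difference -0.71, limma adjusted p = 0.0269) and the gene (difference -1.23, limma adjusted p = 0.0414) passed. The window also passed with array weights. Both passed with 1 mean per condition, a fit that takes no spread from K562. These were dim probes: on the old-sorting array 0 of 8 were well above background in the early channel and 1 in the late one, and on the new-sorting array 8 and 0 were. On the array labelled 44k, 3 and 0 of 4 were, and all 4 late values were surrogate signals, which the software gives to dim spots. There the probes that start at 41197379 and 41246380 both read -0.44, and their deposited log ratio was 0. The part of this dimness in the K562 values was not tested. Near BRCA1, 1 of 11 windows passed, against 31.0% of all windows. It lay 250 kb before (0.33 in K562 and 1.31 in U2OS, difference -0.98). That call was lost without 5 of the 7 arrays, all but the new-sorting array and the second manual one (differences -1.24 to -0.77, largest limma adjusted p = 0.0829).

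At BRCA2 the gene's own window did not pass between the lines, while most windows around it did. Its window chr13:32750001-33000000, with all 10 probes and also FRY and N4BP2L1, read 0.54, 0.17 and 0.27 in K562, 0.64 and 0.74 in manual U2OS and 0.44 and 0.43 in automated U2OS. The new-sorting array reached into the U2OS range. The means were 0.33 ± 0.19 (SD, n = 3) and 0.56 ± 0.15 (SD, n = 4), with a difference of -0.24 (SE 0.21, 95% interval -0.70 to 0.23, limma adjusted p = 0.425). With 500-kb windows it passed (difference -0.80, limma adjusted p = 0.0272), and with 100-kb windows the difference was 0.33 (limma adjusted p = 0.329). By contrast 7 of its 9 tested flanking windows within 1250 kb passed, against 31.0% of all windows. All 7 were later in K562 with no overlap between lines (differences -2.35 to -1.50, limma adjusted p = 0.000599 to 0.00642). At 500 kb before the gene's window K562 read -3.00, -2.18 and -1.81 and U2OS 0.10, 0.68, -0.34 and -0.37. At 750 kb after, K562 read -2.41, -1.58 and -1.08 and U2OS 0.20, 0.80, 0.51 and 0.15.

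In K562 the early stretch at BRCA2 was narrow. It rose from -1.11 at 250 kb before, through 0.33 at the gene, to 1.01 at 250 kb after, and was back to -0.02 at 500 kb and -1.69 at 750 kb. Over the same windows U2OS lay between 0.39 and 0.84. Summed signal did not follow: over the 7 windows that passed in timing, its difference between the lines was -0.07 to 0.24, with limma adjusted p = 0.466 to 0.999. The count of 7 lay between 6 and 8 under each alternative in which these windows could be counted, and was 7 without any single array (largest limma adjusted p of the 7 windows 0.0213). This pattern was picked out after the values around all 8 genes had been seen. Over all 8 genes, 17 of 69 flanking windows passed (24.6%, against 31.0% of all windows). Of the 17, 15 were later in K562, among them the 7 at BRCA2, and 2 were earlier. Of all windows 16.2% passed as later and 14.7% as earlier. The 69 include the second windows of RB1, NF1 and BRCA1.

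**Figure D2:**
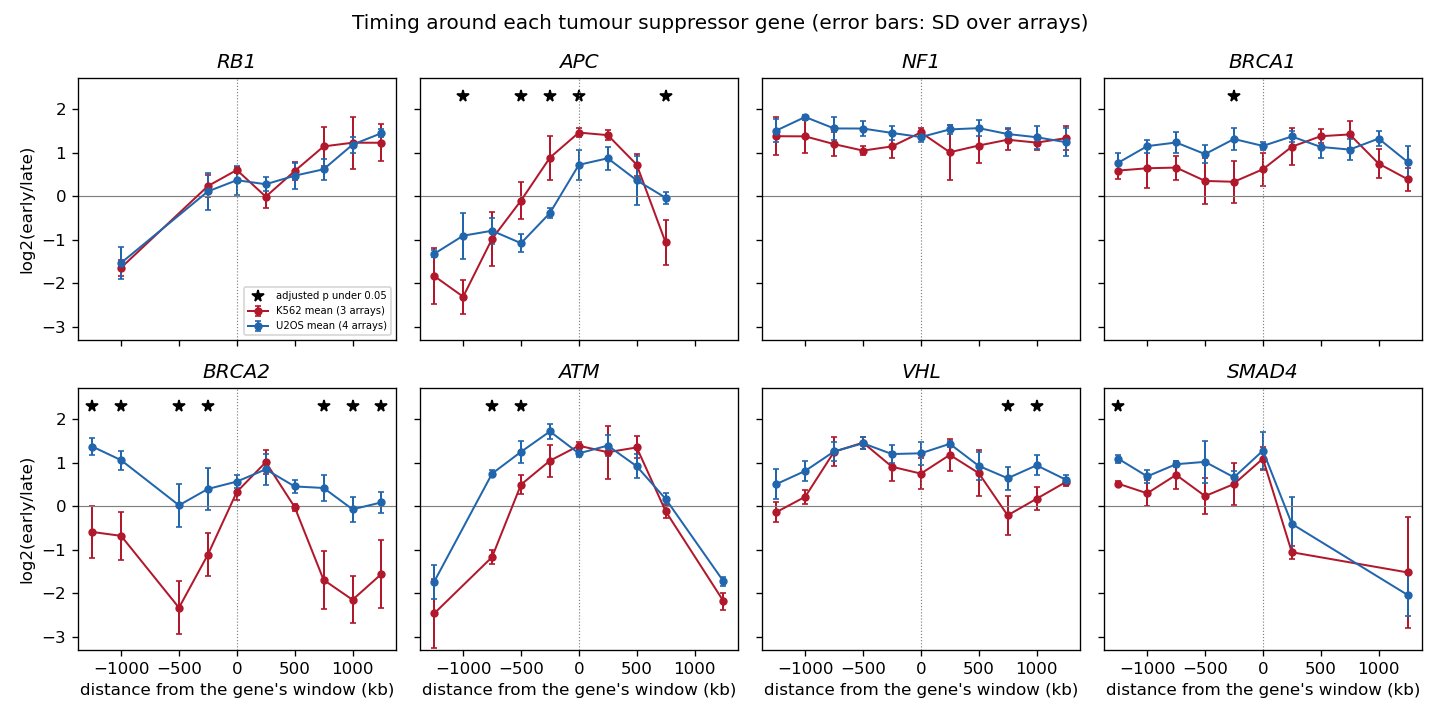
Timing, as log2(early/late), of the tested 250-kb windows within 1250 kb of each gene; points are line means (K562 red, 3 arrays; U2OS blue, 4 arrays), error bars 1 SD, lines join tested windows, and stars mark a limma adjusted p under 0.05. At BRCA2 the K562 line falls to -2.33 before the gene and -2.15 after it while U2OS stays near or above 0, and at NF1 both lines stay above 1.

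ATM was early in both lines. The window chr11:108000001-108250000, with all 11 probes and also NPAT and ACAT1, read 1.49, 1.33 and 1.33 in K562, 1.24 and 1.27 in manual U2OS and 1.24 and 1.08 in automated U2OS. All K562 arrays were above all U2OS arrays, by a small margin. The means were 1.38 ± 0.09 (SD, n = 3) and 1.21 ± 0.09 (SD, n = 4), with a difference of 0.18 (SE 0.19, 95% interval -0.25 to 0.60, limma adjusted p = 0.526). On the side before the gene the early domain ended sooner in K562. At 750 kb before, K562 read -1.34, -1.02 and -1.15 and U2OS 0.85, 0.77, 0.65 and 0.71, with no overlap (difference -1.91, SE 0.20, limma adjusted p = 0.000131), and at 500 kb before the difference was -0.75 (limma adjusted p = 0.0318). The first call held without any single array (largest limma adjusted p = 0.00142), and the second held only when the new-sorting array was the one left out (differences -0.84 to -0.63, largest limma adjusted p = 0.101). Of the 9 windows tested at and around ATM only these 2 passed, against 31.0% of all windows.

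Ranked by window mean, NF1, APC and ATM led in K562 (1.46, 1.46 and 1.38), and NF1, BRCA1 and again NF1 in U2OS (1.45, 1.37 and 1.36). BRCA2 and RB1 came last in K562 (0.33 and -0.01), and RB1 in U2OS (0.37 and 0.27). Most adjacent gaps in these orders were small: 8 of 10 in K562 and 9 of 10 in U2OS were within the larger SD of the pair. That SD can include shifts that both windows share on an array, so it does not test the order. The gaps beyond it were those from RB1 to BRCA2 and from BRCA2 to the second RB1 window in K562, and that from BRCA1 to APC in U2OS.

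The 8 genes were also read by the mean of their own probes. In the fit over 24656 genes, 0 of 8 passed with limma, against 13.2% of all genes, and 1 of 8, BRCA1, had an unadjusted p under 0.05, against 26.8% of all genes. The lines did not overlap at 2 of 8, APC and SMAD4, against 28.5% of all genes. SMAD4 averaged 1.24 in K562 and 1.64 in U2OS (difference -0.39, limma adjusted p = 0.412), ATM 1.37 and 1.25, BRCA2 0.71 and 0.56, RB1 0.45 and 0.27, and VHL 0.16 and 0.54. NF1 had the same mean, 1.37, in both lines, with a 95% interval of the difference from -0.64 to 0.64. Among genes on other chromosomes with at least 5 probes, those nearest in timing over the 7 arrays, by root mean square difference, were HIBADH for NF1 (0.08), PDE8A for SMAD4 (0.09), UGGT1 for ATM (0.10), IL23R for APC (0.11), DYNC1H1 for BRCA1 (0.17), SRRM3 for BRCA2 (0.18), TCF7L2 for RB1 (0.19) and ZC3H7B for VHL (0.37). IL23R averaged 1.32 in K562 and 0.58 in U2OS, close to APC on both counts.

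No tumour suppressor window passed between the lines in summed channel signal with all 7 arrays. With limma, 0 of 11 windows passed, against 30.9% of all windows (17.9% higher and 12.9% lower in K562), and 0 had an unadjusted p under 0.05, against 42.3% of all. None was without overlap between lines, against 38.0% of all windows. Summed signal holds both the number of DNA copies and the amount of labelled DNA per copy, which cannot be told apart here. It also differs between probes, so windows were compared only between arrays. This does not hold the probes constant for the array labelled 44k. It has 10 probes against 21 in the APC window, and 15 against 24 in the first BRCA1 window.

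The widest summed difference was at APC, opposite in sign to its timing difference. Its window read 0.17, -0.19 and 0.66 in K562 (new sorting, old sorting, 44k), 0.51 and 0.74 in manual U2OS and 0.51 and 0.41 in automated U2OS. The 44k array lay inside the U2OS range and the other K562 arrays below it. The difference was -0.33 (SE 0.21, 95% interval -0.78 to 0.12, limma adjusted p = 0.245). It passed without the 44k array (difference -0.55, limma adjusted p = 0.0474) and with shifted windows (-0.58, limma adjusted p = 0.027). With 1 mean per condition, a fit that takes no spread from K562, it passed as well. BRCA1 spread most among the K562 arrays: its first window read 0.06, -0.64 and 0.65 in K562, -0.13 and -0.09 in manual U2OS and 0.48 and 0.42 in automated U2OS. Its SD in K562, 0.65, was larger than the difference of -0.15 (SE 0.27, limma adjusted p = 0.718). VHL differed by -0.22 (SE 0.18, limma adjusted p = 0.379), with 0.02, -0.48 and -0.14 in K562 and -0.14 to 0.13 in U2OS. The window of BRCA2 was the steadiest: -0.12, -0.13 and -0.25 in K562 and -0.35 to -0.07 in U2OS, a difference of 0.02 (SE 0.16, 95% interval -0.33 to 0.37). The first RB1 window differed by 0.12, the main NF1 window by -0.12, ATM by -0.12 and SMAD4 by 0.03, each with limma adjusted p of at least 0.63. At the BRCA1 probes, 8 on the larger design and 4 on the array labelled 44k, the old-sorting array read -2.00. The new-sorting array read -0.72, the array labelled 44k -0.48, and U2OS -0.78 to -0.42.

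**Figure D3:**
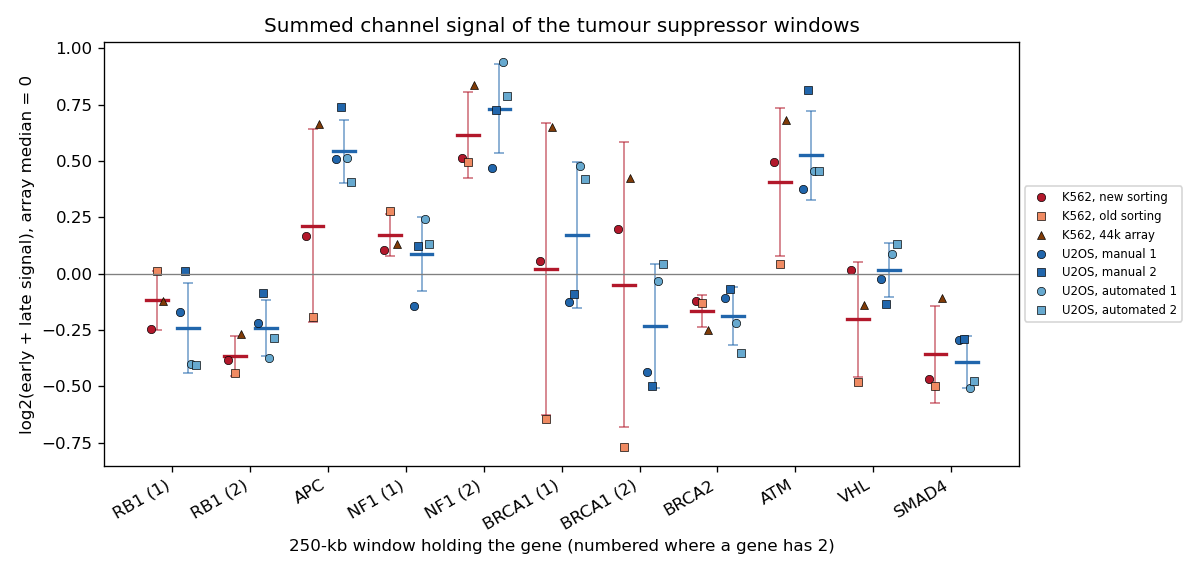
Summed signal, as log2 of early plus late signal with the array median at 0, of the 11 windows; points are single arrays, bars the mean of K562 (3 arrays, red) and U2OS (4 arrays, blue), and error bars 1 SD. The lines overlap at every window, and the K562 arrays spread most at BRCA1, from -0.64 to 0.65 in its first window.

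The windows of APC and SMAD4 passed between U2OS handlings, calls that changed with the processing. With limma on the 4 U2OS arrays, 2 of 11 windows passed between automated and manual, against 16.7% of 11176 windows (3.75% earlier and 12.9% later on the automated arrays), and the handlings did not overlap in 6 of 11, against 64.3% of all. APC was later on the automated arrays (0.42 against 1.02, difference -0.60, SE 0.16, limma adjusted p = 0.0428). This call was lost in 11 of 22 alternatives, and the difference was -0.22 with normexp offset 50, -0.19 with loess and -0.19 without background correction, where that between the lines was 0.43, 0.46 and 0.31. Under those settings most windows of the genome passed between handlings, and those of BRCA1 and VHL were among them (differences 0.35 to 0.54). The window of SMAD4 was earlier on the automated arrays (1.63 against 0.91, difference 0.73, SE 0.17, limma adjusted p = 0.0284). The 5 SMAD4 probes averaged 1.67 and 1.60, so the gap lay in the other probes of the window, and the call was lost with 100-kb windows (0.37, limma adjusted p = 0.328) and shifted windows (0.31, limma adjusted p = 0.247). The first RB1 window had the next widest value, -0.44 (SE 0.21, limma adjusted p = 0.172), BRCA2 had -0.25, and the second RB1 window, both windows of BRCA1 and of NF1, ATM and VHL lay between -0.14 and 0.13. Handling cannot be told apart from slide here, since both manual arrays shared a slide. Without the first or the second automated array 0 member windows passed, and without the second manual array 1 did.

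Between the K562 arrays with the new and the old sorting method, all 11 windows read higher with the new one, by 0.04 to 0.80 with a median of 0.30. Each method had 1 array, so there was no test. Of all windows 49.4% read higher with the new method, and of the windows above 0 on both arrays 79.7% did. The new-sorting array also had the wider profile, with an SD over windows of 1.81 against 1.19. The largest of these differences were at the BRCA1 windows (0.74 and 0.80) and VHL (0.65), and the smallest at NF1 (0.04), SMAD4 (0.07) and APC (0.10).

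The partners of the 8 genes in their pathways were read from 7 lists, of which 82 of 85 genes were measured under the listed names. In the fit over genes 10 of 82 passed (12.2%, against 13.2% of all genes), 5 earlier and 5 later in K562 (against 6.06% and 7.1% of all genes), with a median difference of -0.11, against -0.15 over all genes. The list of SMAD4 and the TGF-beta pathway held 4 of the 5 later genes among 14, and the list of BRCA proteins and recombination 3 of the 5 earlier genes among 10. The list medians were -0.35 and -0.10.

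In the TGF-beta list the ligand TGFB2 read -2.42, -2.47 and -1.83 in K562 and 1.83, 1.27, 0.71 and 0.84 in U2OS, with no overlap (difference -3.40, SE 0.36, limma adjusted p = 0.000805). The receptor TGFBR2 averaged -1.57 in K562 and 0.42 in U2OS (difference -1.98, limma adjusted p = 0.00411). The ligand BMP4, on a single probe, averaged -1.55 and 0.19 (difference -1.74, limma adjusted p = 0.00585). SMAD1, a SMAD that receptors phosphorylate, averaged -1.73 and -0.01 (difference -1.72, limma adjusted p = 0.0153). These genes were late in K562, while SMAD4 itself was early in both lines. Of the 4 calls SMAD1 alone was lost when an array was left out, the new-sorting one (difference -1.41, limma adjusted p = 0.0578).

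Among the recombination genes PALB2, which bridges BRCA1 and BRCA2, read 1.36, 0.85 and 1.66 in K562 and -0.80, -0.59, -0.86 and -1.25 in U2OS (difference 2.17, SE 0.32, limma adjusted p = 0.00231). BARD1, the partner of BRCA1, was late in both lines and less so in K562, at -1.05 against -2.65 (difference 1.60, limma adjusted p = 0.017). The helicase BRIP1 averaged 1.40 in K562 and 0.14 in U2OS (difference 1.26, limma adjusted p = 0.0338). In the ATM list of 12 genes NBN, a subunit of the break sensor, alone passed, at 1.19 in K562 and -0.55 in U2OS (difference 1.73, limma adjusted p = 0.0118). In the APC and WNT list of 10 genes AXIN2, a scaffold of the destruction complex, was later in K562 (-0.75 against 0.83, difference -1.58, limma adjusted p = 0.0123) and LEF1, a DNA-binding partner of beta-catenin, earlier (0.53 against -0.84, difference 1.37, limma adjusted p = 0.0182). Calls were lost at BARD1 without the old-sorting or the 44k array (differences 1.53 and 1.37, limma adjusted p = 0.0554 and 0.0585), at LEF1 without either automated array (1.23 and 1.28, limma adjusted p = 0.0612 and 0.0657), and at BRIP1 without any array but the 44k and the second manual one (1.11 to 1.45 over all 7 omissions, largest limma adjusted p = 0.106).

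In the lists of the RB pathway (14 genes), NF1 and RAS (11 genes) and VHL and HIF (11 genes), 0 genes passed with limma, against 13.2% of all genes. In these lists 4, 0 and 4 had an unadjusted p under 0.05, against 26.8% of all genes. Their median differences were 0.32, -0.07 and -0.16. Most of their members were early in both lines: 13, 9 and 11 had a mean above 0 in K562 and 12, 9 and 10 in U2OS.

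**Figure D4:**
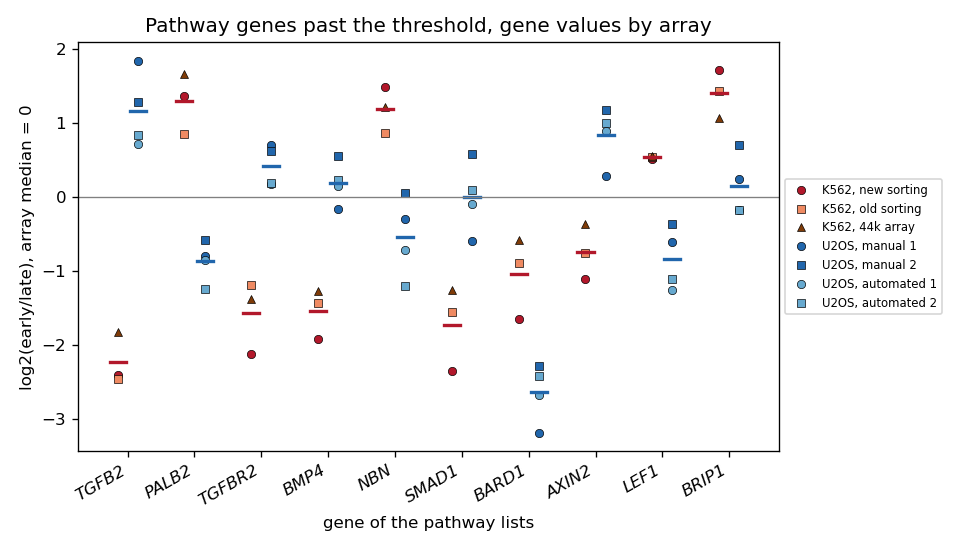
Timing, as log2(early/late) with the array median at 0, of the 10 pathway genes that passed a limma adjusted p of 0.05 between K562 and U2OS with no overlap; points are single arrays and bars line means (K562 red, U2OS blue). TGFB2 shows the widest gap, from a mean of -2.24 in K562 to 1.16 in U2OS.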

How the data were processed

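Early (Cy3) and late (Cy5) BrdU-labelled DNA were hybridised to 7 2-colour Agilent arrays with the same dye assignment on each, so no dye swap separates dye from timing. The deposited spot intensity of each channel was background-subtracted and dye-normalized by Feature Extraction 11.5.1.1, per the file headers; the submitters' processing notes name version 9.1. The log10 ratios in the deposited tables set the late channel over the early one, and the file headers give build hg19. The software gives dim spots surrogate signals: 49.8% of late values on the array labelled 44k, and 0.302% to 14.8% on the others. They bound the ratios of dim probes.

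The ratio was turned to log2(early/late). Control, saturated, non-uniform and manually excluded spots were dropped, chromosomes 1 to 22 and X kept, and each array centred on its median. Probes were averaged in 250-kb windows (at least 3 on every array) and by gene name. Lines (3 K562, 4 U2OS arrays) and U2OS handlings were compared with limma 3.58.1 in R 4.3.3 (lmFit, eBayes), with Benjamini-Hochberg adjustment over all features; passing means an adjusted p under 0.05. Array number limits the precision. The fits were tested on simulated data drawn independently for each array, which held no shared slide, handling or sorting effects.

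Members and lists were chosen with earlier results of these data known. Named were all members, the 10 pathway genes with the largest differences among those past the threshold without overlap (10 passed), the nearest gene for each member, CDKN2A and DPPA2. Exon and intron positions on hg19 were not analysed here. Alternatives covered background correction, loess, filters, centring, scaling, window size, probe minimum, array weights, condition means, slide, replicate block and each array left out.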

Additional observations from a re-analysis of the deposited data

Results flagged for a closer look

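Among 38 sets of 4 U2OS values (windows and genes, timing and summed signal), 3 had an array far from the other 3 by Dixon's criterion, which chance gives in about 1 of 20 sets. They were the first NF1 window in timing on manual array 2 (1.67), the ATM window in timing on automated array 2 (1.08) and the summed signal of the APC probes on manual array 1 (0.50).

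Timing differed between K562 and U2OS (K562 minus U2OS, limma adjusted p under 0.05) in these windows, given by their distance from the gene's window. For APC the differences were -1.40 at -1000 kb, 0.98 at -500 kb, 1.27 at -250 kb, 0.74 at the gene and -1.02 at 750 kb. For BRCA2 they were -1.96 at -1250 kb, -1.74 at -1000 kb, -2.35 at -500 kb, -1.50 at -250 kb, -2.11 at 750 kb, -2.07 at 1000 kb and -1.64 at 1250 kb. ATM had -1.91 at -750 kb and -0.75 at -500 kb, VHL -0.85 at 750 kb and -0.77 at 1000 kb, BRCA1 -0.98 at -250 kb and SMAD4 -0.57 at -1250 kb.

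The pathway genes that differed were TGFB2 (-3.40), TGFBR2 (-1.98), BMP4 (-1.74), SMAD1 (-1.72) and AXIN2 (-1.58), later in K562, and PALB2 (2.17), NBN (1.73), BARD1 (1.60), LEF1 (1.37) and BRIP1 (1.26), earlier in K562. Between U2OS handlings, automated minus manual, APC (-0.60) and SMAD4 (0.73) differed. Handling and slide cannot be told apart.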

How the results depend on the processing

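The count of member windows that passed between the lines, 1, was 0 with a normexp offset of 50 or 0, with loess, without background correction, with a difference of at least 1 as well, with at least 1 probe or with the probes on both designs, 3 with array weights or 1 mean per condition, and 0 to 2 with 1 array left out (BRCA1 and VHL without the new-sorting array). The count of member genes, 0, was 1 with 1 mean per condition, which drops genes with no value on the array labelled 44k, and 0 to 1 with 1 array left out (BRCA1, without the new-sorting array). For summed signal the member count, 0, was 1 with 100-kb windows, shifted windows or 1 mean per condition, and 0 to 1 with 1 array left out (APC, without the array labelled 44k). Over all windows in timing, 2761 passed; the count was 1836 with loess, 1469 without background correction, 1499 with 500-kb windows, 5729 with 1 mean per condition and 1402 without surrogate values, and 2044 to 3570 with 1 array left out. Over all genes, 3244 passed; the count was 2160 with loess, 1249 without background correction, 2111 with the probes on both designs and 2101 to 3161 with 1 array left out (2101 without automated array 2). Over all windows in summed signal, 2750 passed; the count was 1561 without probes below background in both channels, 740 with a difference of at least 1, 1679 with 100-kb windows, 4927 with array weights, 5328 with 1 mean per condition and 983 without surrogate values, and 1962 to 3192 with 1 array left out.

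Between U2OS handlings 1864 windows passed. The count was 8127, 4272 and 8259 with normexp offset 50, offset 0 and loess, 7410 without background correction, 923 without probes below background, 515 with a difference of at least 1, and 19 to 2621 with 1 array left out (19 and 104 without automated array 1 and 2). Of the member windows, 2 passed; the count was 7 with normexp offset 50 or loess, 5 without background correction, 1 without probes below background, with mean centring, with 100-kb windows or with shifted windows, 0 with a difference of at least 1, and 0 to 2 with 1 array left out. Under normexp offset 50 and loess, automated minus manual turned positive and passed at the main NF1 window (0.27 and 0.29) and at ATM (0.31 and 0.37). The cause of these shifts was not tested. The numbers 1 and 2 did not pair the U2OS arrays (correlation of deviations -0.04 over 11176 windows); with the replicate number as a block 2917 windows passed, and 2 member windows as before.

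Surrogate values, the probes on both designs and averaging the shared slide were alternatives chosen after seeing the data. The slide as a random block was not run, since limma could not estimate its correlation from 1 slide with more than 1 array; with both arrays of that slide averaged, APC differed by 0.84 (limma adjusted p = 0.0408) and 2414 windows passed. All 10 named pathway genes kept their direction in each alternative run; TGFB2, PALB2, TGFBR2, BMP4 and AXIN2 also passed in each, and the largest adjusted p of the others was 0.251, at BARD1. Signal over background limits the late channel on the array labelled 44k (1 of 38 member probes above it) and both channels on the old-sorting array (51 of 92 early and 55 of 92 late).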
